A study of Mus musculus with 10 samples.

Results

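This account is of 32 mouse genes of the interferon response and of antigen presentation by the major histocompatibility complex (MHC) class I. They were taken as a list of symbols and found by Entrez gene ID in the deposited tables, where all 32 were present among 27178 genes. By role they were 2 sensors of viral RNA, 5 transcription factors, 13 effectors, 6 genes of the ISG15 and ubiquitin or ADP-ribosyl systems, and 6 genes of antigen processing and presentation.

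RNA-seq was run on GFP-positive cells sorted from embryonic mouse cortex, with 2 libraries in each of 5 groups. The CcKO group (NCKO in the sample titles) was a conditional Ccn1 knockout on C57BL/6, Ccn1 fl/fl with Nestin-Cre, and its WT group was wildtype C57BL/6. Both received the PB-Ctrl plasmid by electroporation at E14.5 and were collected at E17.5. The PB-CCN1, PB-GPC4 and PB-Ctrl groups were wildtype ICR embryos, electroporated at E13.5 with the plasmid that names the group and collected at E15.5. Every group, the controls included, also received a PiggyBac transposase plasmid at 3 µg/µl beside the PiggyBac plasmid at 1.5 µg/µl, so no group was free of electroporated plasmid DNA. Nestin-Cre acts in neural progenitors and their offspring, the labels do not say whether the wildtype C57BL/6 embryos carried Cre or floxed alleles, and ICR is an outbred stock. The labels do not state that the 2 libraries of a group came from separate animals or litters, so the p-values below measure only the spread between these libraries.

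Interferons are secreted when cells sense foreign or misplaced nucleic acid. They act through cell-surface receptors and JAK kinases on a factor that holds STAT2 and IRF9 and binds the interferon-stimulated response element (ISRE) in the promoters of antiviral genes. Interferon gamma acts mainly at the gamma-activated site (GAS) and raises MHC class I, the immunoproteasome and the peptide transporter. In the developing cortex these genes are usually low in neurons and progenitors, and MHC class I proteins are also known there for roles in synapse formation.

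Total counts ranged from 22505945 to 30825498 per library. The targeted gene went with the labels: Ccn1 had 17 and 86 counts in CcKO against 415 and 340 in WT, Ccn1 had 7100 and 7000 CPM (counts scaled to library depth) in PB-CCN1 against 50.5 and 57.4 CPM in PB-Ctrl, and Gpc4 had 5120 and 5000 CPM in PB-GPC4 against 70.6 and 66.1 CPM in PB-Ctrl. The summed level of 8 excitatory neuron markers was between 6590 and 7330 CPM in every library, although single markers moved. The summed level of 12 microglia and macrophage markers was between 4.7 and 13.8 CPM, and that of 6 lymphocyte markers did not pass 0.892 CPM, with Cd3e and Nkg7 at 0 in all 10 libraries. Among counts of 1 to 9, between 72.7% and 75.6% were even numbers, against 49.6% to 51.7% of counts from 100 to under 1000. The cause of this was not tested.

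Most members were low. Their mean level over the 10 libraries had a median of 1.5 FPKM, against 7.73 FPKM over the 15371 genes tested, and 12 of the 32 members were under 1 FPKM (fragments scaled to transcript length and library depth). All 32 passed the filter on low counts. Only 10 had 100 or more counts in every library, 13 had under 30 in at least 1 library, and 5 (Ifit1, Ifit3, Rsad2, Parp14 and Psmb9) had under 30 in every library. The highest were Ifitm2, an interferon-induced membrane protein that restricts virus entry, at 42.7 FPKM, H2-D1, an MHC class I heavy chain, at 21.7 FPKM, and B2m, the light chain of MHC class I, at 21.0 FPKM. Irf3, the transcription factor that switches on interferon genes after nucleic acid sensing, followed at 17.4 FPKM. The lowest were Parp14 at 0.0893 FPKM and Rsad2, the antiviral enzyme viperin, at 0.0954 FPKM.

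**Figure D1:**
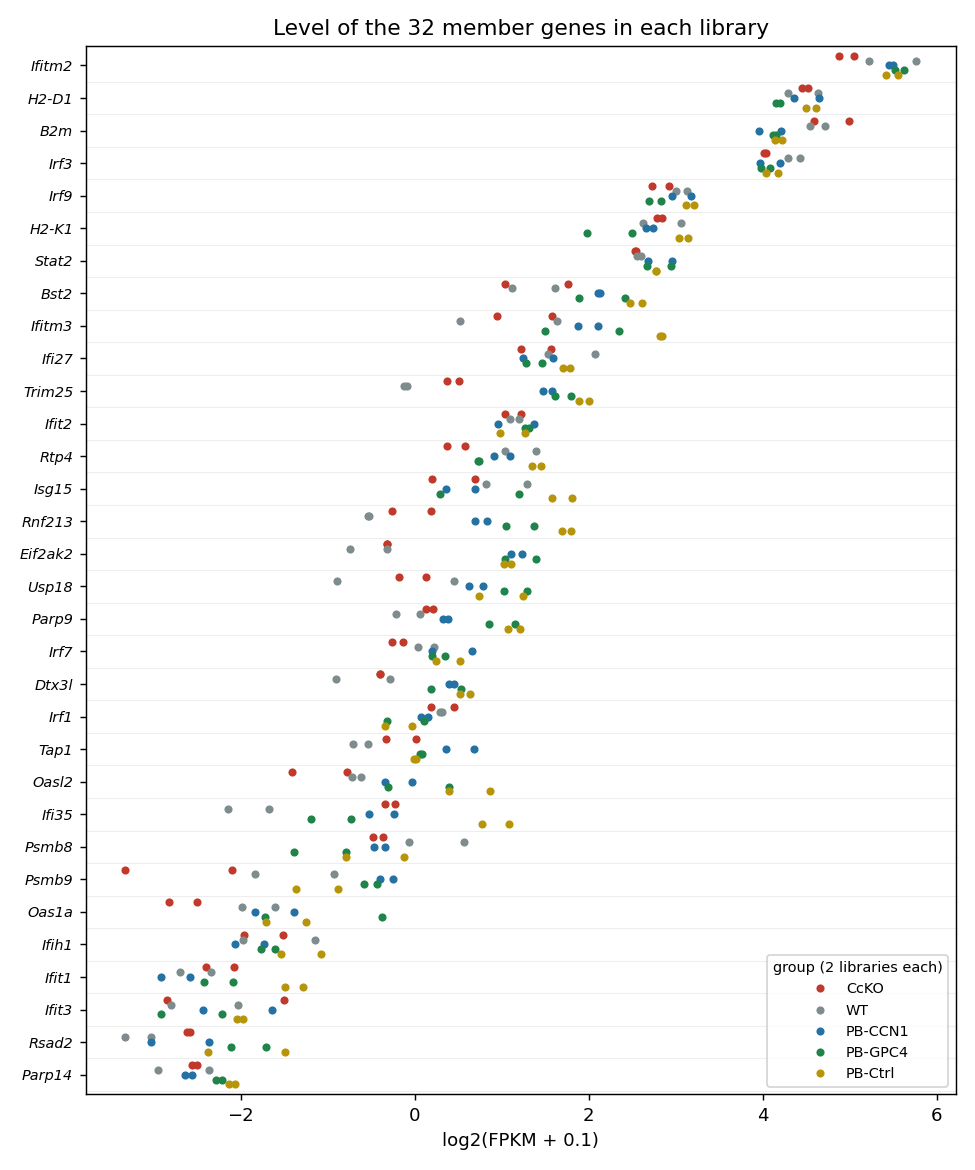
Level of each of the 32 genes in each library as log2 of FPKM plus 0.1, ordered by mean level, with 2 points per group coloured by group. Ifitm2, H2-D1, B2m and Irf3 stand at the top, while Rsad2 and Parp14 stand at the bottom, and the 2 WT libraries lie to the left of the 2 PB-Ctrl libraries for genes such as Rnf213, Trim25 and Ifi35.

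The members differed in promoter matches to the elements that interferon acts on. RefSeq windows of 250 bases before to 50 bases after the transcription start (GRCm38.p6) were at hand for 27 of the 32 members. They were searched on both strands for an ISRE core, GAAANNGAAA, and for a GAS, TTCNNNGAA. The ISRE core was found in 12 of 27 members (44.4%), against 3.99% of all 27025 genes with such a window, and the GAS in 8 of 27 (29.6%), against 9.55%. Of these members 4 had both, with overlapping matches in 2. The list was made of interferon response and class I genes, so higher shares than those of all genes may follow from that choice. A match describes the letters in the window and is not evidence of binding. The search took exact letters only, so a window without a match may still hold a variant of the element. The 5 windows below are printed 5′ to 3′ on the gene's strand because they set 2 members with ISRE core matches beside 3 of the 4 members that were lower in PB-GPC4, whose windows held none. Capitals mark ISRE core matches. Isg15 (chr4:156200769-156201068, minus strand) had 3 overlapping matches, of which the nearest to the start began 66 bases before it. B2m (chr2:122147437-122147736, plus strand) had 1, beginning 139 bases before the start. Rnf213 (chr11:119389849-119390148, plus strand), Ifi35 (chr11:101448162-101448461, plus strand) and H2-K1 (chr17:34000284-34000583, minus strand, 1 of 2 starts listed) had no ISRE core match, and Ifi35 had 1 GAS match.
Isg15: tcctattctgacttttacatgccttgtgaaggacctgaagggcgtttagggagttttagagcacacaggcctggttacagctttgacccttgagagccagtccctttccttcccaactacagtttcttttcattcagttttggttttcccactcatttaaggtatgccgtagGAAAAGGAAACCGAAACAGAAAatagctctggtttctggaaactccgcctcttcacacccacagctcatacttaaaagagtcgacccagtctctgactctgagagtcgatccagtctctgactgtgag
B2m: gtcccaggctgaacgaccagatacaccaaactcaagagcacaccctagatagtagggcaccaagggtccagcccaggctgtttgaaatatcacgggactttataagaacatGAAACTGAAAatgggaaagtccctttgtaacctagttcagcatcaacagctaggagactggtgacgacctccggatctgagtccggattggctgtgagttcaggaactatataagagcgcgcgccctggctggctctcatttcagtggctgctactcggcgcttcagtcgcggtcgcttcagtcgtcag
Rnf213: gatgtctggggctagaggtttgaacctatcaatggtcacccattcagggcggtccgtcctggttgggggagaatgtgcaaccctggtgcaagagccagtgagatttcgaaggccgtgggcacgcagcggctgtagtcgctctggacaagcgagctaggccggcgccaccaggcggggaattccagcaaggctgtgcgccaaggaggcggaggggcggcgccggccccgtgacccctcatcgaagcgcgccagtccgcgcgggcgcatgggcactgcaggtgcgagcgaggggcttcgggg
Ifi35: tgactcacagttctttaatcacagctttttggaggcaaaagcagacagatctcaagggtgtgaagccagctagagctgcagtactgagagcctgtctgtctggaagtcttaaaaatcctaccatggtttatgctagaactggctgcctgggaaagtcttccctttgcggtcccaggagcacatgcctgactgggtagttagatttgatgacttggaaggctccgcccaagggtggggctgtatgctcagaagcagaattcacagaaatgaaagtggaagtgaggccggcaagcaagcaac
H2-K1: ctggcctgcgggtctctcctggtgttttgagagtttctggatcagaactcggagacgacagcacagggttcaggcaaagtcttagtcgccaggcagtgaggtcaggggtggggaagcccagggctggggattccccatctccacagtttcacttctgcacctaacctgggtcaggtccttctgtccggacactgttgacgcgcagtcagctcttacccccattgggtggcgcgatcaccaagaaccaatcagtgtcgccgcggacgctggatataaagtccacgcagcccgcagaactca

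In CcKO against WT, the members moved in both directions. Of 32, 3 rose (Ifi35, Rnf213 and Trim25), 3 fell (Irf3, Ifitm2 and Rtp4) and 26 did not pass the test (edgeR quasi-likelihood F-test, adjusted p under 0.05 over all genes tested). These 6 were 18.8% of the members, against 30.3% of all genes tested that passed in this comparison (17.4% higher and 12.9% lower), so the share called among the members was below that of all genes. The median log2 fold change of the members was 0.04, against 0.02 for all genes tested. Both CcKO libraries were above both WT libraries for 7 members and below them for 11, where the background was 32.7% of genes above and 28.6% below.

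Among the effectors, Ifi35 (Entrez gene 70110, chromosome 11, 101448412 to 101458701), an interferon-induced protein that can act as a released danger signal, had 26 and 26 counts in CcKO against 4 and 8 counts in WT. Both knockout libraries were above both wildtype libraries, all 4 counts being under 30. The log2 fold change was 2.06 ± 0.60 (SE, adjusted p = 0.00976 by edgeR), with a 95% interval of 0.83 to 3.30. In bulk RNA, fewer cells of a type and less RNA per cell cannot be told apart, here and in every result below. Without WT replicate 1 the difference was 1.77 (edgeR adjusted p = 0.0726).

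Rnf213 (Entrez gene 672511, chromosome 11, 119389950 to 119487418), a very large ubiquitin ligase with antimicrobial activity whose human gene is linked to moyamoya disease, had 12.4 and 17.7 CPM in CcKO against 9.90 and 9.99 CPM in WT. The CcKO libraries were higher without overlap but lay apart from each other. The log2 fold change was 0.60 ± 0.14 (SE, adjusted p = 0.00169 by edgeR), and without CcKO replicate 2 it was 0.30 (edgeR adjusted p = 0.162). Trim25 (Entrez gene 217069, chromosome 11, 88999403 to 89020294), the ubiquitin ligase that activates the RNA sensor RIG-I, had 6.57 and 7.35 CPM in CcKO against 4.61 and 4.50 CPM in WT. The groups did not overlap, and the log2 fold change was 0.62 ± 0.16 (SE, adjusted p = 0.00356 by edgeR).

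The 3 members that fell were Irf3, Ifitm2 and Rtp4. Irf3 (Entrez gene 54131, chromosome 7, 44997648 to 45002848) had 35.3 and 35.4 CPM in CcKO against 42.2 and 46.2 CPM in WT, with no overlap and a log2 difference of -0.32 ± 0.09 (SE, adjusted p = 0.00765 by edgeR). Ifitm2 (Entrez gene 80876, chromosome 7, 140954837 to 140959686) had 18.3 and 20.9 CPM in CcKO against 23.1 and 33.4 CPM in WT. Both knockout libraries were below both wildtype ones, and WT replicate 2 was well above WT replicate 1. The log2 fold change was -0.54 ± 0.13 (SE, adjusted p = 0.00168 by edgeR). Without WT replicate 2, Ifitm2 was at -0.24 (edgeR adjusted p = 0.222) and Irf3 at -0.25 (edgeR adjusted p = 0.119). Rtp4 (Entrez gene 67775, chromosome 16, 23520219 to 23614222), a transporter protein that also binds viral RNA, had 2.16 and 1.88 CPM in CcKO against 3.92 and 3.03 CPM in WT. The groups did not overlap, with a log2 difference of -0.78 ± 0.29 (SE, adjusted p = 0.0415 by edgeR). Its adjusted p was 0.226 without WT replicate 1, 0.0616 without CcKO replicate 1 and 0.144 without CcKO replicate 2.

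**Figure D2:**
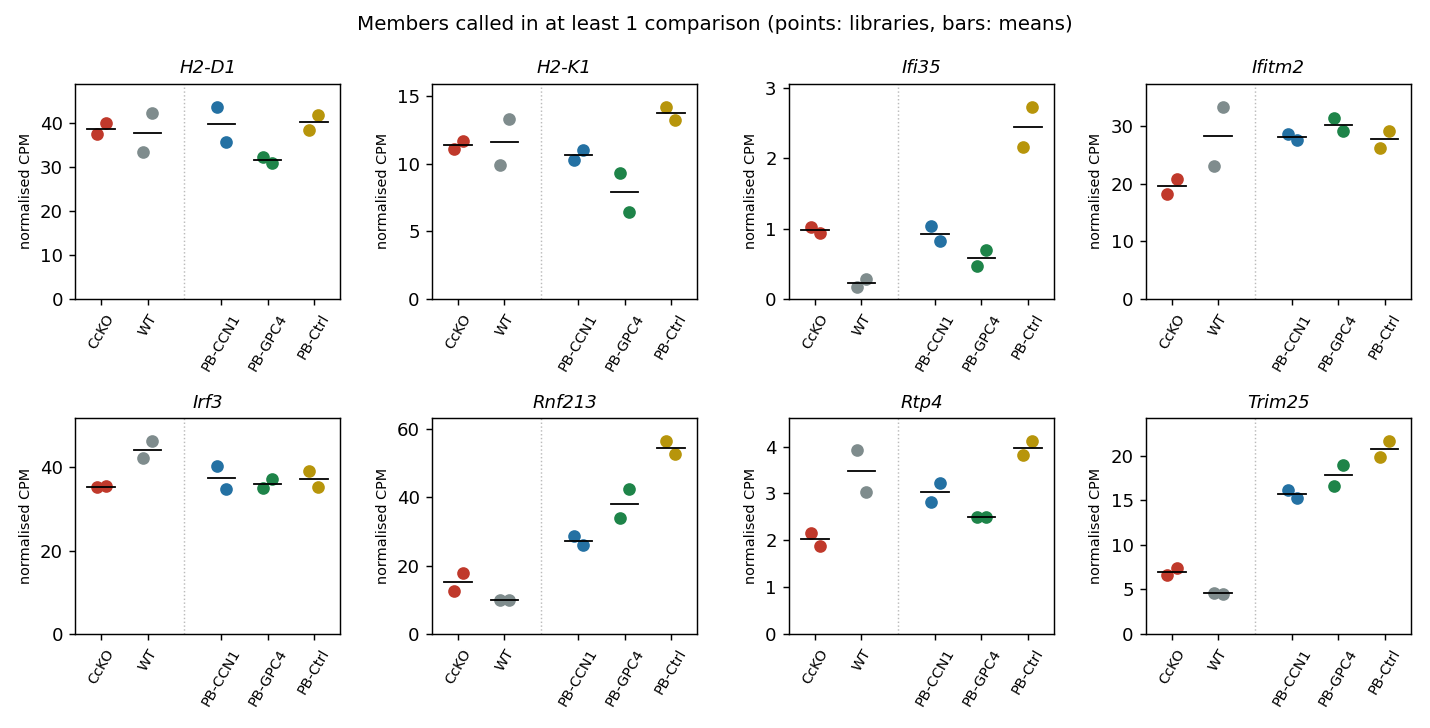
Level in CPM, from 0, of the 8 genes that passed the test in at least 1 comparison within an experiment. Points are libraries and bars are group means, with the E17.5 groups left of the dotted line and the E15.5 groups right of it. The PB-Ctrl libraries are the highest of the E15.5 groups for Rnf213, Ifi35, Rtp4 and Trim25, and the CcKO libraries lie above the WT libraries for Ifi35, Rnf213 and Trim25.

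MHC class I levels were close in CcKO and WT. H2-D1 (Entrez gene 14964, chromosome 17, 35263094 to 35267497) had 37.5 and 40.0 CPM in CcKO against 33.4 and 42.3 CPM in WT, a log2 difference of 0.03 with a 95% interval of -0.19 to 0.24. H2-K1 (Entrez gene 14972, chromosome 17, 33996012 to 34000619), the other class I heavy chain among the members, had 11.1 and 11.7 CPM in CcKO against 9.90 and 13.3 CPM in WT, a difference of -0.03 with an interval of -0.38 to 0.31. For both genes the CcKO libraries lay between the WT libraries. B2m (Entrez gene 12010, chromosome 2, 122147687 to 122153082) had 20.4 and 27.3 CPM in CcKO against 19.8 and 22.2 CPM in WT, with overlap and a difference of 0.19 ± 0.13 (SE, adjusted p = 0.307 by edgeR). Tap1, the peptide transporter, had 2.68 and 2.06 CPM in CcKO against 1.49 and 1.71 CPM in WT, above without overlap, but did not pass the test (edgeR adjusted p = 0.2). The immunoproteasome subunits were low: Psmb8 had 21 and 21 counts in CcKO against 39 and 29 in WT, and Psmb9 had 0 and 3 counts in CcKO against 8 and 4 in WT. Neither passed the test, and the ratio of the summed Psmb9 counts was 0.24 with an exact counting interval of 0.0434 to 0.889.

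The CcKO and WT libraries also differed along gene length and GC content. The lengths behind the deposited FPKM run from 627 bases for Ifitm2 to 16939 bases for Rnf213 among the genes just named. With a smooth trend over length and GC removed from each library, 18.1% of all genes passed the test in this comparison, and 2 of the 32 members did. Ifi35 stayed higher at 2.26 (edgeR adjusted p = 0.00783), and B2m passed as higher at 0.44 (edgeR adjusted p = 0.0178). The other 5 no longer passed: Rnf213 moved to 0.02 (edgeR adjusted p = 0.943), Trim25 to 0.41 (0.067), Irf3 to -0.21 (0.0991), Ifitm2 to -0.21 (0.223) and Rtp4 to -0.65 (0.123). What produced the trend was not tested.

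**Figure D3:**
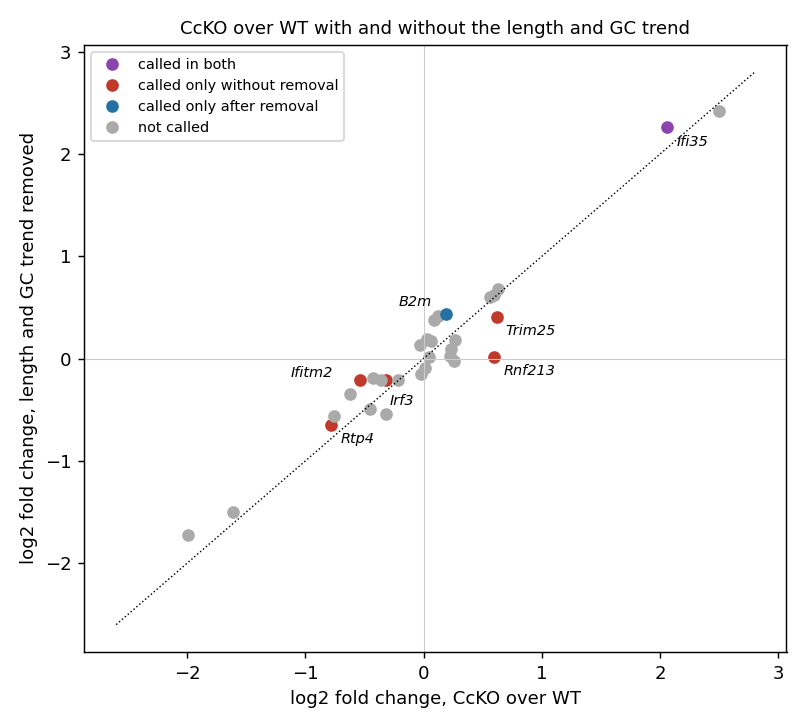
Log2 fold change of each member in CcKO over WT as fitted (horizontal axis) and with the length and GC trend removed (vertical axis), where the dotted line marks equal values. Ifi35 passed the test in both fits, Rnf213 was at 0.60 as fitted and at 0.02 with the trend removed, and B2m passed in the fit with the trend removed.

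The remaining members were spread around 0 in CcKO. The sensor Eif2ak2, the kinase PKR that halts translation on viral RNA, had 3.04 CPM in CcKO against 2.57 CPM in WT, a log2 difference of 0.23 (SE 0.23). Ifih1, the RNA sensor MDA5, had 35 and 24 counts in CcKO against 20 and 54 in WT. The transcription factors other than Irf3 did not pass the test: Irf9 was at -0.22 (SE 0.12), Irf7 at -0.36 (SE 0.36), Stat2 at -0.02 (SE 0.11) and Irf1 at 0.05 (SE 0.27). Isg15, the ubiquitin-like modifier, had 29 and 22 counts in CcKO against 41 and 35 in WT, below without overlap and not past the test (edgeR adjusted p = 0.336). Rsad2 had 6 and 7 counts in CcKO against 2 and 0 in WT, a count ratio of 6.24 with an exact counting interval of 1.41 to 56.9, and an edgeR adjusted p of 0.141. Ifit1 and Ifit3, which bind foreign RNA, had 14 counts or fewer in each of these 4 libraries.

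In PB-CCN1 against PB-Ctrl, 1 of 32 members passed the test: Rnf213 fell. That is 3.12% of members, against 1.19% of all genes tested (0.748% in the lower direction). Rnf213 had 28.6 and 26.1 CPM in PB-CCN1 against 56.4 and 52.7 CPM in PB-Ctrl, from 639 and 605 counts in PB-CCN1 and 1462 and 1487 counts in PB-Ctrl. Both overexpression libraries were far below both control libraries, and replicates lay close together. The log2 fold change was -1.0 ± 0.12 (SE, adjusted p = 9.21e-06 by edgeR), and -0.91 (adjusted p = 6.23e-05) with the length and GC trend removed. On log2 of FPKM plus 1, limma gave -0.71 and an adjusted p of 0.0721.

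The members, Rnf213 included, were more often below than above PB-Ctrl in PB-CCN1, and apart from Rnf213 by amounts that did not pass the test singly. Of 32, 21 had a fold change below 0 and 11 above, with a median of -0.23 against 0.01 for all genes tested. Both PB-CCN1 libraries were below both PB-Ctrl libraries for 15 members (46.9%, where 21.9% of all genes were) and above for 4 (12.5%, where 23.5% were). In the ISG15 and ubiquitin or ADP-ribosyl group, all 6 fold changes were below 0 and 5 of 6 members did not overlap. Parp9, an ADP-ribosyltransferase that works with the ubiquitin ligase Dtx3l, had 4.30 and 4.14 CPM in PB-CCN1 against 7.06 and 7.80 CPM in PB-Ctrl, a difference of -0.82 ± 0.22 (SE, adjusted p = 0.0606 by edgeR). Isg15 had 20 and 27 counts in PB-CCN1 against 56 and 72 in PB-Ctrl (log2 difference -1.19, edgeR adjusted p = 0.255). Trim25 had 16.1 and 15.2 CPM in PB-CCN1 against 19.8 and 21.6 CPM in PB-Ctrl, a difference of -0.40 ± 0.13 (SE, adjusted p = 0.17 by edgeR). Parp14, another ADP-ribosyltransferase, had 10 and 12 counts in PB-CCN1 against 26 and 26 in PB-Ctrl. For these 4 genes both PB-CCN1 libraries were the lower ones.

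Several effectors at low counts were below PB-Ctrl in PB-CCN1 without passing the test. Ifi35 had 23 and 19 counts in PB-CCN1 against 56 and 77 in PB-Ctrl (-1.40, edgeR adjusted p = 0.214). Ifit1 had 4 and 2 counts in PB-CCN1 against 21 and 19 in PB-Ctrl (-2.45, edgeR adjusted p = 0.228). Both genes were lower in PB-CCN1 without overlap. Ifit1 passed the filter on low counts only through its PB-Ctrl libraries, so a fall from PB-Ctrl was favoured by that filter. It is nevertheless counted among the members below PB-Ctrl without overlap, here and in the other comparisons with PB-Ctrl. Oasl2, an oligoadenylate synthetase-like antiviral protein, had 62 and 51 counts in PB-CCN1 against 98 and 152 in PB-Ctrl, and Ifitm3, the close relative of Ifitm2, had 52 and 64 counts in PB-CCN1 against 116 and 128 in PB-Ctrl. Rsad2 had 8 and 2 counts in PB-CCN1 against 9 and 27 in PB-Ctrl, so its 2 PB-Ctrl libraries stood apart from each other.

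No transcription factor or antigen presentation gene passed the test in PB-CCN1 against PB-Ctrl by edgeR, with 1 antigen presentation gene, H2-K1, under an unadjusted p of 0.05. Irf3 differed by 0.01 (95% interval -0.18 to 0.20), Stat2 by 0.08 (-0.14 to 0.30) and Irf9 by -0.06 (-0.30 to 0.17). Irf1 had 3.23 and 3.45 CPM in PB-CCN1 against 2.93 and 2.30 CPM in PB-Ctrl, above without overlap, at 0.35 (-0.22 to 0.93). H2-D1 had 43.8 and 35.8 CPM in PB-CCN1 against 38.5 and 42.0 CPM in PB-Ctrl, the control libraries lying between the others, and B2m had 16.0 and 13.4 CPM in PB-CCN1 against 15.7 and 14.9 CPM in PB-Ctrl. H2-K1 had 10.3 and 11 CPM in PB-CCN1 against 14.2 and 13.2 CPM in PB-Ctrl, below without overlap, with a difference of -0.37 ± 0.17 (SE, adjusted p = 0.389 by edgeR). Tap1 had 4.48 and 3.53 CPM in PB-CCN1 against 2.62 and 2.66 CPM in PB-Ctrl, above without overlap, at 0.60 ± 0.30 (SE, adjusted p = 0.435 by edgeR). Psmb9 had 12 and 14 counts in PB-CCN1 against 6 and 10 in PB-Ctrl, also above, and Psmb8 had 19 and 18 counts in PB-CCN1 against 15 and 28 in PB-Ctrl. Psmb9 passed the filter on low counts only through PB-CCN1 and PB-GPC4, which favoured higher values there than in PB-Ctrl.

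In PB-GPC4 against PB-Ctrl, 4 of 32 members fell and none rose: H2-K1, H2-D1, Ifi35 and Rnf213. That is 12.5% of members, against 6.36% of all genes tested (3.19% higher and 3.17% lower). The median of the members was -0.22, against 0.00 for all genes tested, and 23 of 32 fold changes were below 0. Both PB-GPC4 libraries were below both PB-Ctrl libraries for 15 members (46.9%, where 27.0% of all genes were) and above for 3 (9.38%, where 26.7% were). This comparison and the one before share the PB-Ctrl libraries.

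Both class I heavy chains among the members fell, and the light chain did not pass the test. H2-K1 had 9.32 and 6.43 CPM in PB-GPC4 against 14.2 and 13.2 CPM in PB-Ctrl, a log2 difference of -0.81 ± 0.17 (SE, adjusted p = 0.0034 by edgeR). H2-D1 had 32.3 and 31.0 CPM in PB-GPC4 against 38.5 and 42.0 CPM in PB-Ctrl, a log2 difference of -0.35 ± 0.11 (SE, adjusted p = 0.0446 by edgeR). The groups did not overlap for either gene, and PB-GPC4 replicate 2 held the lowest H2-K1 level of all 10 libraries. B2m had 15 and 15.4 CPM in PB-GPC4 against 15.7 and 14.9 CPM in PB-Ctrl, with a difference of -0.01 and a 95% interval of -0.29 to 0.27. Tap1 was at 0.11 (SE 0.30), Psmb8 at -0.72 (9 and 18 counts in PB-GPC4 against 15 and 28 in PB-Ctrl) and Psmb9 at 0.75 (12 and 16 counts in PB-GPC4 against 6 and 10 in PB-Ctrl), and none of them passed. H2-Q4, a class I gene outside the 32, also fell at -0.85 ± 0.21 (SE, adjusted p = 0.0128 by edgeR). Class I genes are near-identical in sequence, so the split of reads among H2-K1, H2-D1 and the H2-Q genes is uncertain, as it is between Ifitm2 and Ifitm3. The labels do not give the class I alleles of the outbred ICR embryos, and the part of genotype in these differences was not tested. Parp9 overlaps Dtx3l, Rtp4 overlaps Masp1 and B2m overlaps Patl2 in RefSeq, Rnf213 and Trim25 overlap noncoding genes, and whether the counting used strand is not given in the sources used here.

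Ifi35 had 12 and 21 counts in PB-GPC4 against 56 and 77 in PB-Ctrl, without overlap, a log2 difference of -2.06 ± 0.51 (SE, adjusted p = 0.0124 by edgeR). Rnf213 had 33.9 and 42.4 CPM in PB-GPC4 against 56.4 and 52.7 CPM in PB-Ctrl, also without overlap, a log2 difference of -0.51 ± 0.12 (SE, adjusted p = 0.00701 by edgeR). These 4 falls rest on few libraries: none passed without PB-Ctrl replicate 1, where the adjusted p-values ran from 0.065 for Ifi35 to 0.122 for Rnf213. H2-K1 alone passed without PB-Ctrl replicate 2 or PB-GPC4 replicate 1, and Rnf213 alone without PB-GPC4 replicate 2, where H2-K1 was at -0.55 (edgeR adjusted p = 0.137).

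Among the other members in PB-GPC4, Irf9, a subunit of the factor that binds the ISRE, had 17.4 and 19.0 CPM in PB-GPC4 against 22.8 and 24.4 CPM in PB-Ctrl, below without overlap, with a difference of -0.37 ± 0.12 (SE, adjusted p = 0.0503 by edgeR), and it passed with the length and GC trend removed (-0.38, edgeR adjusted p = 0.0391). Irf3 differed by -0.04 (95% interval -0.23 to 0.15) and Stat2 by 0.07 (-0.14 to 0.29). Isg15 had 22 and 51 counts in PB-GPC4 against 56 and 72 in PB-Ctrl, and Ifitm3 had 46 and 100 counts in PB-GPC4 against 116 and 128 in PB-Ctrl. Bst2, the tetherin that holds virus particles at the cell surface, had 72 and 124 counts in PB-GPC4 against 119 and 118 in PB-Ctrl. For these genes PB-GPC4 replicate 1 was the lower of the pair. Rtp4 had 2.50 and 2.49 CPM in PB-GPC4 against 3.82 and 4.11 CPM in PB-Ctrl, below without overlap, at -0.67 ± 0.28 (SE, adjusted p = 0.159 by edgeR). Usp18, which removes ISG15 and dampens the receptor, was at 0.19 (SE 0.34), and Eif2ak2 at 0.20 (SE 0.19).

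None of the 4 members that fell in PB-GPC4 had an exact ISRE core match. They were among the 15 members whose window held no ISRE core, where they made up 26.7%. Of the 12 members with a match, 0 passed as lower by edgeR, with 1 under an unadjusted p of 0.05. The median log2 fold change was close in both: -0.21 without a match (11 of 15 below 0) and -0.18 with one (8 of 12). Ifit1, Ifit3 and Rsad2, with under 30 counts in every library, had a match, and Psmb9, also that low, had none. Over all tested genes with a window, 3.19% of those without a match and 1.02% of the 393 with one passed as lower in this comparison. In CcKO, 6.67% of the members without a match and 8.33% of those with one were lower. Among all tested genes with a window, 1506 of 11146 without a match and 46 of 393 with one were. In PB-CCN1 the shares were 6.67% and 0.0% of members, and 0.664% and 0.509% of all such genes. That 6.67% was 1 gene, Rnf213, also 1 of the 4 in PB-GPC4 and compared with the same PB-Ctrl libraries. In WT against PB-Ctrl they were 33.3% of each for members, and 29.4% and 26.0% for all such genes. As higher in CcKO, 3 of the 15 members without a match passed and 0 of the 12 with one. Among all such genes, 1982 of 11146 and 49 of 393 did. The Isg15 and B2m windows printed above belong to the 12, and those of Rnf213, Ifi35 and H2-K1 to the 15. Only exact matches within 300 bases were sought, which leaves out variant elements inside the window and elements elsewhere.

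The plasmids were also compared with each other, without the PB-Ctrl libraries. In PB-CCN1 against PB-GPC4, 1 of 32 members passed the test (3.12%, against 2.15% of all genes tested, 1.4% higher and 0.755% lower): Rnf213 was lower in PB-CCN1. Its levels were 28.6 and 26.1 CPM in PB-CCN1 against 33.9 and 42.4 CPM in PB-GPC4, for a log2 difference of -0.48 ± 0.12 (SE, adjusted p = 0.0319 by edgeR). The groups did not overlap, and PB-GPC4 replicate 2 was the highest. The adjusted p was 0.429 without PB-GPC4 replicate 2, 0.13 and 0.248 without either PB-CCN1 library and 0.0501 without PB-Ctrl replicate 1, which enters through the shared estimate of spread.

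Most antigen presentation genes stood higher in PB-CCN1 than in PB-GPC4 without passing the test. For 5 of 6 both PB-CCN1 libraries were above both PB-GPC4 libraries, where 23.6% of all genes were, and the median was 0.39. Psmb8 had 19 and 18 counts in PB-CCN1 against 9 and 18 in PB-GPC4. Psmb9 had 12 and 14 counts in PB-CCN1 against 12 and 16 in PB-GPC4. Both are among the 5, and stood above without overlap only after scaling to library depth. H2-D1 was at 0.33 ± 0.11 (SE, adjusted p = 0.106 by edgeR) and H2-K1 at 0.44 ± 0.17 (SE, adjusted p = 0.212 by edgeR), while B2m overlapped at -0.05 (SE 0.14). The ISG15 and ubiquitin or ADP-ribosyl group went the other way, with both PB-CCN1 libraries below for 4 of 6 members, where 23.3% of all genes were, and Parp9 at -0.72 ± 0.22 (SE, adjusted p = 0.082 by edgeR).

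**Figure D4:**
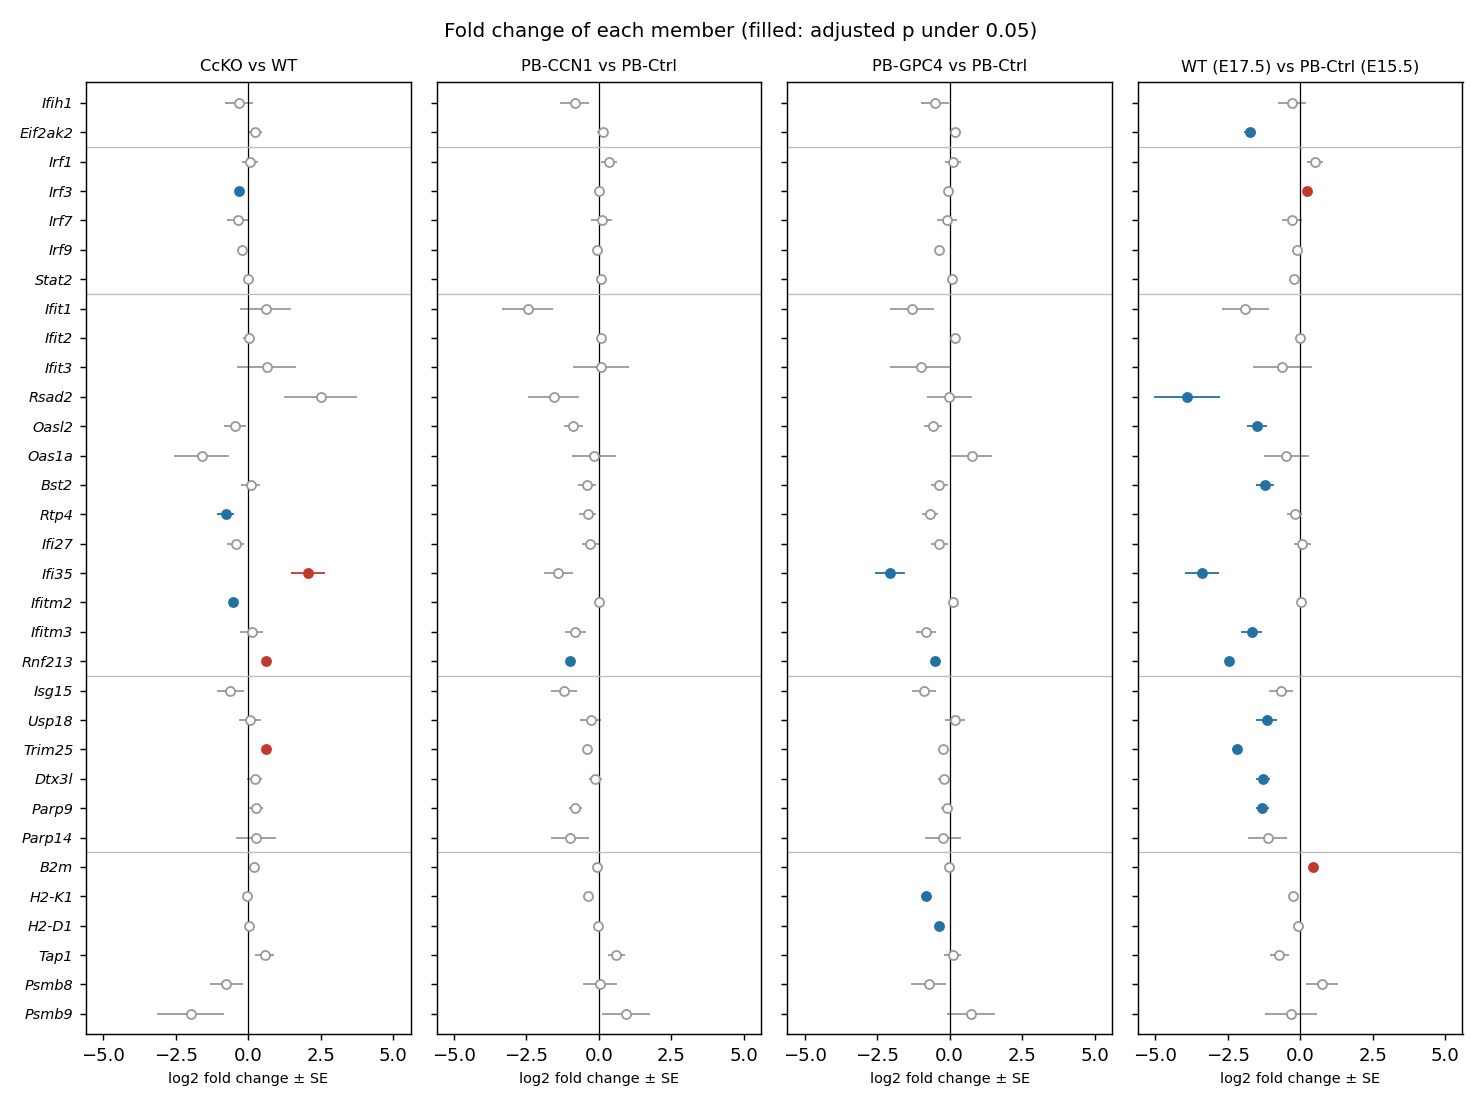
Log2 fold change with its standard error for each member in 4 comparisons, grouped by role from sensors at the top to antigen presentation at the bottom. Filled points passed the test, in red where higher and blue where lower. Most points in the comparison of WT at E17.5 with PB-Ctrl at E15.5 lie left of 0, and the ubiquitin and ISG15 group lies left of 0 in PB-CCN1.

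The 2 experiments had different baselines for these genes. In WT at E17.5 against PB-Ctrl at E15.5, 11 members were lower and 2 higher, together 40.6% of members, against 54.9% of all genes tested that passed (26.4% higher and 28.6% lower). Strain, age and day of electroporation differ together between these groups and cannot be told apart. Both WT libraries were below both PB-Ctrl libraries for 17 members (53.1%, where 39.4% of all genes were) and above for 4 (12.5%, where 38.0% were), and the median was -0.55, against -0.01 for all genes tested.

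The lowest values relative to PB-Ctrl were in effectors and in the ubiquitin group. Rnf213 had 9.90 and 9.99 CPM in WT against 56.4 and 52.7 CPM in PB-Ctrl, a log2 difference of -2.45 ± 0.13 (SE, adjusted p = 5.56e-15 by edgeR). Trim25 had 4.61 and 4.50 CPM in WT against 19.8 and 21.6 CPM in PB-Ctrl, a log2 difference of -2.19 ± 0.15 (SE, adjusted p = 5.5e-13 by edgeR). Ifi35 had 4 and 8 counts in WT against 56 and 77 in PB-Ctrl, a log2 difference of -3.38 ± 0.58 (SE, adjusted p = 1.35e-05 by edgeR). The groups were far apart for all 3 genes, and the CcKO libraries lay between those of WT and PB-Ctrl for each. Eif2ak2 (-1.72), Ifitm3 (-1.67), Oasl2 (-1.49), Parp9 (-1.30), Dtx3l (-1.28), Bst2 (-1.20) and Usp18 (-1.15) were lower as well. Rsad2 had 2 and 0 counts in WT against 9 and 27 in PB-Ctrl, a count ratio of 0.0586 with an exact counting interval of 0.00684 to 0.228. All 6 members of the ISG15 and ubiquitin or ADP-ribosyl group were below without overlap, and 4 of them passed.

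B2m and Irf3 were the 2 members higher in WT. B2m had 19.8 and 22.2 CPM in WT against 15.7 and 14.9 CPM in PB-Ctrl, a log2 difference of 0.46 ± 0.13 (SE, adjusted p = 0.00465 by edgeR), and Irf3 was at 0.25 ± 0.09 (SE, adjusted p = 0.0202 by edgeR). Neither passed with the length and GC trend removed (B2m 0.16, Irf3 0.04), where 16 of 32 members passed and all were lower, H2-K1 at -0.51 and H2-D1 at -0.37 among them, against 47.5% of all genes tested that passed (23.7% lower). Without WT replicate 2, B2m had an adjusted p of 0.0703 and Irf3 of 0.186, and without PB-Ctrl replicate 2 Irf3 had 0.139. Outside the 32, the class I gene H2-T23 had 12.1 ± 1.9 CPM in WT against 0.534 ± 0.0464 CPM in PB-Ctrl (SD, n = 2), a log2 difference of 4.49 ± 0.30 (SE, adjusted p = 6.07e-13 by edgeR). It had 9.64 and 10.7 CPM in CcKO, 0.403 and 0.948 CPM in PB-CCN1 and 0.195 and 0.295 CPM in PB-GPC4.

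The pathway around the members was read from fixed lists. Transcripts of the interferons were at or near 0: Ifna4, Ifng, Ifnl2 and Ifnl3 had 0 counts in all 10 libraries, a result that allows up to 3 counts per library, and Ifnb1 had 8 counts in PB-GPC4 replicate 2 and 0 in the other 9. The receptor genes were well covered, with 2696 to 4090 counts of Ifnar1, a chain of the type I receptor, and 1875 to 2840 counts of Ifngr2, a chain of the gamma receptor. Of the 5 tested genes in the list of 11 ligands and receptors, 0 passed the edgeR test in CcKO, PB-CCN1 or PB-GPC4 against their controls, with 1 each under an unadjusted p of 0.05 in PB-CCN1 and in PB-GPC4. The shares of all genes tested that passed were 30.3% in CcKO, 1.19% in PB-CCN1 and 6.36% in PB-GPC4.

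Of 11 genes of nucleic acid sensing 9 were tested, and 0 passed the edgeR test in CcKO, PB-CCN1 or PB-GPC4 against their controls, with 0 under an unadjusted p of 0.05 in each. Over all genes tested, 30.3% passed in CcKO, 1.19% in PB-CCN1 and 6.36% in PB-GPC4. Ddx58, the RNA sensor RIG-I that Trim25 activates, had 72 and 69 counts in CcKO against 47 and 96 in WT, with overlap, and was at -0.04 (SE 0.26) in PB-CCN1 and -0.44 (SE 0.26) in PB-GPC4 against PB-Ctrl.

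Of the JAK-STAT list (8 tested), 2 rose in CcKO (Jak1 0.28, Socs3 0.31) and 1 fell (Ptpn2 -0.30). These were 37.5% of the list, against 30.3% of all genes tested. In PB-CCN1, 0 passed the edgeR test (1 with an unadjusted p under 0.05), where 1.19% of all genes tested passed. In PB-GPC4, 1 rose (Socs3 0.35), which is 12.5% of the list against 6.36% of all genes tested. Socs3 and Ptpn2 are feedback inhibitors of the pathway. In PB-CCN1 against PB-GPC4, 2 of 8 were lower (25.0%, against 2.15% of all genes tested that passed), Ptpn2 (-0.31) among them.

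Of 40 other interferon-stimulated genes, 26 were tested. In CcKO, 3 rose and 0 fell (11.5% passed, against 30.3% of all genes tested, of which 17.4% higher): Trim21, a cytosolic antibody receptor, with 14 and 11 counts in CcKO against 0 and 2 in WT, Pml (0.31) and the RNA editing enzyme Adar (0.15). For Trim21 the count ratio was 12, with an exact counting interval of 2.99 to 104.0. In PB-GPC4, 1 fell (3.85%, against 6.36% of all genes tested that passed), the RNA helicase Znfx1 (-0.39, SE 0.09, edgeR adjusted p = 0.0102). In PB-CCN1 0 passed the edgeR test, where 1.19% of all genes tested did, with 4 under an unadjusted p of 0.05. The medians were 0.21 in CcKO, -0.30 in PB-CCN1 and -0.34 in PB-GPC4.

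Of 18 further genes of class I and antigen processing, 15 were tested. In CcKO 4 of 15 fell (26.7%, against 12.9% of all genes tested): Psme2 (-0.42) and Psme1 (-0.25), subunits of the proteasome activator that interferon gamma induces, Tapbp (-0.43), the tapasin that loads peptides, and the chaperone Pdia3 (-0.15). The constitutive proteasome subunits Psmb6 (-0.35), Psmb5 (-0.27) and Psmb7 (-0.21), which the immunoproteasome subunits replace, fell as well. In PB-GPC4 3 of 15 rose and 1 fell, where 3.19% and 3.17% of all genes tested did. Those that rose were chaperones of the endoplasmic reticulum, Canx (0.31), Pdia3 (0.30) and Calr (0.20), and H2-Q4 fell as given above. In PB-CCN1 1 of 15 rose, Calr (0.20, edgeR adjusted p = 0.0485), where 0.442% of all genes tested did. The 5 MHC class II genes were low, with at most 21 counts of Cd74, H2-Aa, H2-Ab1 or H2-Eb1 in any library and 23 to 68 of Ciita, the class II transactivator. They summed to 1.4 and 1.31 CPM in PB-GPC4 against 3.12 and 3.51 CPM in PB-Ctrl. Both PB-GPC4 libraries were below for 3 of the 4 tested (median -1.6), where 27.0% of all genes were. No tested class II gene passed in these comparisons by edgeR, with 1 under an unadjusted p of 0.05 in PB-GPC4. Among all genes tested, 30.3% passed in CcKO, 1.19% in PB-CCN1 and 6.36% in PB-GPC4.

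Markers of other cell types moved with some of these groups. The summed level of the 12 microglia and macrophage markers was 6.18 and 11.2 CPM in CcKO and 5.55 and 7.88 CPM in WT, then 4.89 and 4.7 CPM in PB-CCN1, 11.5 and 13.8 CPM in PB-GPC4 and 6.91 and 7.59 CPM in PB-Ctrl. It was therefore lowest in PB-CCN1 and highest in PB-GPC4, the group where H2-K1 and H2-D1 were lower than in PB-Ctrl. The 10 endothelial markers summed to 11.3 and 12.6 CPM in CcKO and 8.75 and 11.3 CPM in WT, and to 8.29 and 7.67 CPM in PB-CCN1, 7.64 and 4.43 CPM in PB-GPC4 and 7.1 and 10 CPM in PB-Ctrl. No gene of the microglia or endothelial lists was at 0 in every library of a group. Of 9 microglia and macrophage markers tested, 1 passed in CcKO by edgeR (11.1%, against 30.3% of all genes tested). Against PB-Ctrl, 0 passed in PB-CCN1 or PB-GPC4 (1.19% and 6.36% of all genes did). In PB-CCN1 against PB-GPC4, 2 were lower (22.2%, against 2.15% of all genes tested that passed). Of 9 endothelial markers tested, 0 passed in any of these 4 comparisons. The 6 pericyte and mural markers summed to at least 12.5 CPM in both CcKO libraries and 6.19 and 7.46 CPM in WT, with at most 4.86 CPM in any E15.5 library, and the 6 erythroid markers to 12.8 and 12.9 CPM in CcKO and 4.78 and 3.71 CPM in WT. Among the erythroid markers Hba-a1 (2.74) and Hba-a2 (1.58) rose, while Alas2 averaged 0.992 CPM in CcKO and 1.33 CPM in WT with overlap, and Hbb-y was at 0 in CcKO and in WT. Both sums were thus higher in CcKO than in WT, as were Ifi35, Rnf213 and Trim25. At E15.5 the erythroid sums were 4.93 and 5.52 CPM in PB-CCN1, 11.5 and 8.92 CPM in PB-GPC4 and 8.99 and 8.54 CPM in PB-Ctrl. Ifi35 and Rnf213 were lower in PB-GPC4 than in PB-Ctrl. All 3 genes were highest in PB-Ctrl, where the pericyte and mural sums were 2.97 and 4.86 CPM. The 6 meningeal markers summed to 11.1 and 3.04 CPM in CcKO and 9.85 and 11 CPM in WT, and to between 1.52 and 11.8 CPM at E15.5. Among radial glia and progenitor markers, 4 of 8 rose in CcKO (17.4% of all genes did), Slc1a3 (0.49), Sox2 (0.45), Nes (0.34) and Eomes (0.19). In PB-CCN1 2 of 8 fell (0.748% of all genes did), Nes (-0.32) and Slc1a3 (-0.29), and in PB-GPC4 4 of 8 fell (3.17% of all genes did), Hes5 (-0.70), Slc1a3 (-0.44), Nes (-0.39) and Fabp7 (-0.24). Of the 8 excitatory neuron markers, 5 rose and 2 fell in CcKO (17.4% and 12.9% of all genes did), 3 rose in PB-GPC4 (3.19% did), and 7 passed in WT against PB-Ctrl (54.9% did). Among them Bcl11b, a factor of deep-layer neurons, averaged 72.5 CPM in CcKO and 44.5 CPM in WT, and 217 CPM in PB-Ctrl. The part of these cell types in the levels of the interferon and class I genes was not tested.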

How the data were processed

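The deposited tables held raw read counts per Entrez gene ID, made by the authors with HISAT2 alignment to mm10 and featureCounts after bcl2fastq and Trimmomatic, per the submitters' processing notes, which give no versions. The authors also deposited FPKM values, which follow from the counts, the library total and 1 length per gene. Genes were tested on the counts with edgeR 4.0.16 (R 4.3.3): TMM scaling, filterByExpr (15371 of 27178 genes), 5 group means in 1 model of all 10 libraries, and the quasi-likelihood F-test, two-sided, with Benjamini-Hochberg adjustment over all genes tested and a threshold of 0.05. CPM are TMM-scaled. Fold changes are log2 of the group named first over the other, with a standard error (SE) and 95% interval from the same fit. Exact count ratios use Clopper-Pearson intervals, which cover counting error only and take counts as independent. The excess of even numbers among low counts means that these intervals may be too narrow. The length and GC trend was a lowess fit with a span of 0.3 per library.

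Members in full were those that passed in at least 1 of the 4 comparisons within an experiment and the 3 with the highest mean FPKM. From each list, up to 4 genes that passed per comparison were named, by smallest adjusted p, and genes named beyond these were chosen after their values were seen. The members and lists were chosen with earlier results of these data known. The labels do not say that equal replicate numbers share a litter, day or batch, so the main fit had no block. Same-numbered replicates did not deviate together (Pearson's r between -0.0163 and 0.018). Within a group, the spread between libraries exceeded that of counting alone (chi-square over degrees of freedom 3.41 to 9.1). Alternatives were other size factors, no filter, a replicate block, each experiment alone, each library left out, a fold minimum of 1.5, removal of the trend, DESeq2 1.42.0, and limma 3.58.1 on log2 of FPKM plus 1. The fit was tested on simulated data. Symbols and promoter windows came from RefSeq. Results for some genes of the fixed lists are not reported here.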

Additional observations from a re-analysis of the deposited data

How the results depend on the processing

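The number of members that passed (6 in CcKO, 1 in PB-CCN1, 4 in PB-GPC4 against their controls, 1 in PB-CCN1 against PB-GPC4, 13 in WT against PB-Ctrl) depended on the processing in places, and the cause was not tested. In CcKO it was 2 with the length and GC trend removed, 2 with a replicate block added to that fit, and 4 to 6 with libraries left out. In PB-CCN1 against PB-Ctrl it was 2 without the filter, 3 with each experiment fitted alone, 0 by limma on log2 of FPKM plus 1, and 1 to 2 with libraries left out. In PB-GPC4 it was 2 with a fold of at least 1.5, 2 by DESeq2 (which gave Ifi35 no adjusted p), 2 by limma, and 0 to 5 with libraries left out. In PB-CCN1 against PB-GPC4 it was 0 with a fold of at least 1.5, 3 without the filter, 3 with each experiment alone, 0 by limma, and 0 to 2 with libraries left out. In WT against PB-Ctrl it was 10 to 14 with libraries left out.

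The direction turned for B2m in CcKO without CcKO replicate 2 (-0.06, in a range of -0.06 to 0.38 with libraries left out). In WT against PB-Ctrl it turned for H2-D1 without WT replicate 1 (0.07, in a range of -0.27 to 0.07) or PB-Ctrl replicate 2 (0.01), and for Ifitm2 with the trend removed (-0.46), without WT replicate 2 (-0.27, in a range of -0.27 to 0.27) and without PB-Ctrl replicate 1 (-0.01). In CcKO, Trim25 had an adjusted p of 0.0559 with each experiment alone and 0.0576 by limma, and Rnf213 of 0.189 by limma. In PB-GPC4, H2-D1 had 0.0511 by DESeq2 and 0.0535 with the trend removed, and Rnf213 had 0.133 by limma, while Irf9 passed with the trend removed (0.0391).

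Same-numbered replicates share only a number. A replicate block gave 5, 1, 4, 1 and 13 members in the order above, with Rtp4 in CcKO at an adjusted p of 0.0504. Counts halved and rounded up, chosen after the excess of even counts was seen, gave 6, 1, 5, 1 and 13. Over all genes the number that passed was 4663 in CcKO (2674 to 4822 over all settings), 183 in PB-CCN1 (31 to 537), 978 in PB-GPC4 (284 to 2006) and 331 in PB-CCN1 against PB-GPC4 (66 to 990).

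With 2 libraries a group, a member that did not pass is not shown to be equal. Depth limits the 13 members with under 30 counts in at least 1 library, and intervals spanned several log2 units for those such as Rsad2, Ifit3 and Psmb9.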
